A study of Mus musculus with 27 samples.

Results

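A set of 10 genes of the fibroblast growth factor (FGF) pathway was followed through 9 time points of osteoblast differentiation, from day 2 to day 18 at steps of 2 days. They were chosen by name out of the 37991 genes measured, and comprised 4 secreted ligands (Fgf2, Fgf7, Fgf9 and Fgf18), 3 receptors (Fgfr1, Fgfr2 and Fgfr3) and 3 feedback genes (Spry2, Spry4 and Dusp6). All 10 members were found in every one of the 27 deposited profiles and all 10 passed the filter on low counts. The cells came from the skull vault (calvaria) of neonatal C57BL/6J mice aged 5 to 9 days. The mice carried Col3.6 CFP, a cyan fluorescent protein driven by a fragment of the type I collagen promoter, so that the gate took cells in which this promoter was active, whatever their stage. After 4 days of growth the CFP-positive cells were sorted, replated and kept in αMEM with ascorbic acid and 4 mM β-glycerol phosphate, and every time point shares this genotype, sort and medium. No undifferentiated or untreated arm was analysed here, and the comparison is therefore along the days.

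FGFs bind receptor tyrosine kinases together with heparan sulfate at the cell surface, and the activated receptor passes its signal through the adaptor Frs2 to the Ras-MAPK cascade and through other branches. Signalling through the cascade induces its own inhibitors, among them the Sprouty proteins, which act at or near Ras and Raf, and Dusp6, a phosphatase that removes phosphate from ERK. In the skull vault the balance of these signals governs whether cells of the osteoblast lineage multiply or mature, and activating mutations of the receptors fuse the sutures early.

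The 3 profiles of a time point carried the same barcode and differed in the sequencing lane, and their counts differed by no more than sampling noise over genes with whole counts. They were therefore counted as 1 library, which leaves no replicate at any time point. The study itself describes the profiles of a time point as triplicate samples, and whether they came from separate cultures is not settled by the sources used here. Totals per time point were 22470195 to 62009157 estimated counts. Levels are given as TPM, RSEM's length-corrected transcript abundance, scaled to a common upper quartile, and ± marks the SD over the 3 lanes (n = 3), which, for lanes of 1 library, covers sequencing and quantification but not the spread between cultures. Tests used the counts of the 9 libraries. A straight line in day, fitted by edgeR across 15659 genes, gave the change on the log2 scale over the 16 days with its standard error (SE) and a Benjamini-Hochberg adjusted p, and a natural spline in day tested for change of any shape. Both tests measure change against the scatter of the 9 libraries around the fitted line or spline. They therefore cannot tell a course of differentiation from variation between cultures harvested once. For the line this scatter includes any bend in the course. The dispersion, edgeR's measure of spread beyond counting error, was 0.0581 around the line and 0.0191 around the spline.

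Markers of macrophages and adipocytes rose along the days beside most of those of osteoblasts. Summed over 7 macrophage markers the level was 24.1 to 61.7 TPM on days 2 to 6 and 522 to 2014 TPM on days 14 to 18, with 6 of the 7 rising along the line. Lyz2 was the largest part of this sum, at 19.9 TPM on day 2 and 1855 TPM on day 18. Over 5 adipocyte markers the sum was 3.21 to 7.44 and then 188 to 407 TPM, and all 5 rose. The 10 osteoblast markers summed to 2018 to 3431 and then 3986 to 5216 TPM. The largest part of this sum was Col1a1, at 1526 TPM on day 2 and 4263 TPM on day 18. Of the 9 that could be tested 6 rose. Among them was Bglap, which encodes osteocalcin, at 1.24 TPM on day 2 and 208 TPM at the end. Sp7, Spp1 and Alpl were not called by the line, at −1.23, −1.17 and 2.22 on the log2 scale (edgeR adjusted p = 0.233, 0.0932 and 0.146). The spline did call these 3 genes (edgeR adjusted p = 1.2e-05, 0.00036 and 0.00765), and with them all 9 tested osteoblast markers. Sp7 peaked on day 2, at 32.3 TPM, Spp1 peaked on day 6, at 1012 TPM, and Alpl was lowest on day 6, at 0.467 TPM. The 5 endothelial markers summed to 4.16 to 5.39 and then 10.7 to 13.6 TPM without overlap, and of 4 tested Tek and Cdh5 rose and Kdr fell, while Pecam1 did not exceed 0.339 TPM. The 5 chondrocyte markers summed to 106 to 129 and then 99.8 to 128 TPM, and of 4 tested Col9a1 and Sox9 rose, by 6.83 and 1.25 on the log2 scale, and Col2a1 fell by 1.27. The osteocyte gene Sost was listed at 0 on 6 of 9 days. The part these cell types played in the results on FGF genes was not tested, and in such bulk samples fewer cells of a type and less RNA per cell cannot be told apart.

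The promoter windows of the ligand and the receptor with the largest called rises along the line (Fgf18 and Fgfr2) and of the feedback genes called in opposite directions (Spry2 and Dusp6) are shown here, from 250 bases before to 50 bases after the gene start, as RefSeq gives them on GRCm38.p6. Fgf18 is at chr11:33147351-33147650 (minus strand), Fgfr2 at chr7:130266759-130267058 (minus), Spry2 at chr14:105896770-105897069 (minus) and Dusp6 at chr10:99262981-99263280 (plus). Capitals mark a match to CCGGAA, the core bound by ETS factors.
Fgf18: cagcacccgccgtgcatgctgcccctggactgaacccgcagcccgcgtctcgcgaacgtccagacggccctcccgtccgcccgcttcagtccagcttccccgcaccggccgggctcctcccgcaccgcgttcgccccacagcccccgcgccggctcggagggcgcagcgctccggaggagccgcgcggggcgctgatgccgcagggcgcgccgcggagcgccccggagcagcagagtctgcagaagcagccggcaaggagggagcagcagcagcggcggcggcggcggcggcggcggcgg
Fgfr2: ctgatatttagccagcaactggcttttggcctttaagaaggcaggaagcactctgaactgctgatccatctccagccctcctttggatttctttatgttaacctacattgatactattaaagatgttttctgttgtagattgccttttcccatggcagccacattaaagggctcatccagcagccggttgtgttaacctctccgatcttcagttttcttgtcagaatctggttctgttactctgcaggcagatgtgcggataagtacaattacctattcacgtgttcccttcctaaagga
Spry2: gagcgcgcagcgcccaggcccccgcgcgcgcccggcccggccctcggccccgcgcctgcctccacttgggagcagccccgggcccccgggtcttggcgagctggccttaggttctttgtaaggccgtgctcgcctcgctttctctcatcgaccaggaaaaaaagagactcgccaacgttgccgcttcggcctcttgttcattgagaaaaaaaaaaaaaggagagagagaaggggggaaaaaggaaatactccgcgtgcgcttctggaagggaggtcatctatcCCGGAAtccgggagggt
Dusp6: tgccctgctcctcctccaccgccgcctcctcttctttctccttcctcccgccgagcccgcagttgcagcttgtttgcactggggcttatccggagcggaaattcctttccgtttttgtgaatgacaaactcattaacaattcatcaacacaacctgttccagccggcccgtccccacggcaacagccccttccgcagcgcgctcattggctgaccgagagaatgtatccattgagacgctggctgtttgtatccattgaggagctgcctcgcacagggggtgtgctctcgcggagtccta

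Windows were held for 8 of the 10 members, with 2 for Fgfr3. Searched on both strands, CCGGAA occurred in 1 member, Spry2, at bases 284 to 289 of its window, and in 14.9% of all 32851 windows of the same length. The AP-1 motif TGANTCA, in 7.81% of all windows, and the Runx motif TGTGGT, in 16.8%, matched none of the members' windows. GC content ranged from 42.7% for Fgf9 to 78.7% for Fgf18. These matches describe letters in a window and are not binding sites.

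Along the days, 4 of the 10 genes rose (Fgf18, Fgfr1, Fgfr2 and Spry2), against 28.3% of all genes tested, and 1 fell (Dusp6), against 26.1%. By the spline 7 changed, with Fgf9 and Fgfr3 added to these, against 59.1% of all genes. In CPM, the counts scaled to library size, days 14 to 18 all lay above days 2 to 6 for Fgf18, Fgfr2, Fgfr3 and Spry2, as for 32.6% of all genes, and all below for Dusp6, as for 29.6%. Movement was thus common in the whole transcriptome, whose median fitted change was 0.05 on the log2 scale, and nothing is read from the number of members called. The remaining 3 genes, Fgf2, Fgf7 and Spry4, passed neither test.

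**Figure D1:**
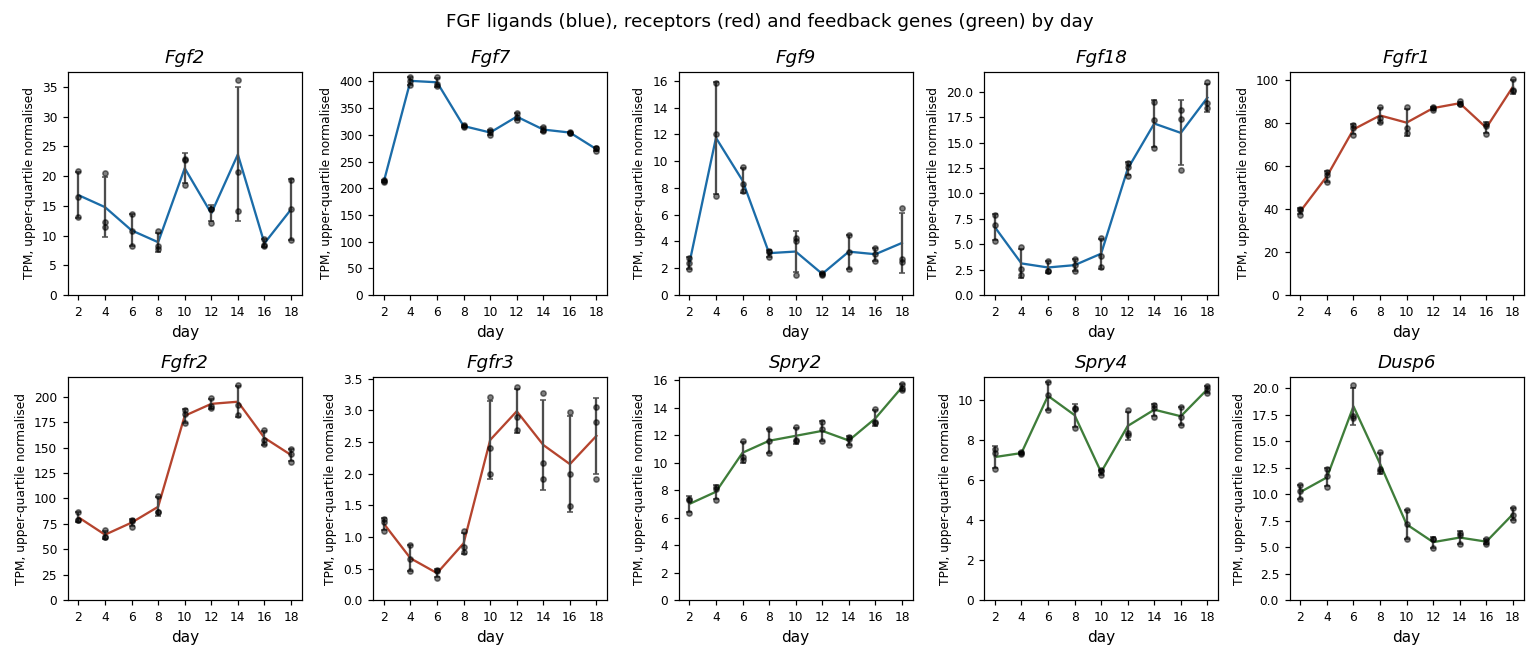
Level of each member (vertical axes, TPM after upper-quartile normalisation, each panel on its own scale from 0) against day of differentiation. Points are the 3 lane profiles of a day, lines join their means and bars are the SD over lanes. Between days 8 and 10 Fgfr2 stepped from 91.8 to 181 TPM, between days 10 and 12 Fgf18 stepped from 4.07 to 12.4 TPM, and Dusp6 was highest on day 6.

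Among the ligands, Fgf18 rose and Fgf7 supplied most of the transcripts. Fgf18, which promotes osteoblast maturation in the developing skull, lies at chr11:33017430-33047400 on the minus strand of NCBIM37. Its level was 6.68 ± 1.29, 3.11 ± 1.42 and 2.71 ± 0.591 TPM at days 2, 4 and 6, then 2.94 ± 0.602, 4.07 ± 1.47 and 12.4 ± 0.641 at days 8, 10 and 12, and 16.9 ± 2.29, 16.0 ± 3.19 and 19.4 ± 1.38 at days 14, 16 and 18. The first 5 days sampled, at 2.71 to 6.68 TPM, did not overlap the last 4, at 12.4 to 19.4 TPM, and within each of these groups most neighbours in the order of levels overlapped. The fitted rise was 2.31 on the log2 scale (SE 0.61, a 4.96-fold change, edgeR adjusted p = 0.00888), and the spline gave an adjusted p of 2.76e-06. Without day 2 the rise was 3.73 (adjusted p = 0.000469). Fgf18 rested on few reads, 48 to 409 per day. Between lanes its counts gave a chi-square per degree of freedom of 2.06 (chi-square test p = 0.005 for 9 days of 3 lanes). This was the largest value of the 10 members, with Dusp6 next at 1.61 (chi-square test p = 0.0489), and the p-values were not adjusted for the number of members.

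Fgf7, known as keratinocyte growth factor and made by mesenchymal cells, accounted for 87.7% to 95.5% of the summed TPM of the 4 ligands. Its gene spans chr2:125860394-125916921 (plus strand, NCBIM37). Its level was 213 ± 1.53, 401 ± 7.01 and 398 ± 8.31 TPM at days 2, 4 and 6, then 316 ± 1.56, 304 ± 3.96 and 334 ± 6.66 at days 8, 10 and 12, and 309.8 ± 4.08, 304 ± 0.994 and 273 ± 3.34 at days 14, 16 and 18. Day 2 stood below every other day, days 4 and 6 stood above every other day, and the 6 days from 8 to 18 kept within 273 to 334 TPM. Over all days the fitted change was −0.25 (SE 0.24, edgeR adjusted p = 0.407), with an adjusted p of 0.0823 by the spline. Single libraries moved this value, to −0.64 without day 2 (adjusted p = 0.00249), −0.06 without day 4 (adjusted p = 0.859), −0.16 without day 6 (adjusted p = 0.612) and −0.14 without day 18 (adjusted p = 0.710).

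Fgf9, a ligand with roles in skeletal growth, was scarce except on days 4 and 6. Its gene is at chr14:58689384-58731174 (plus strand, NCBIM37). Its level was 2.37 ± 0.447, 11.7 ± 4.20 and 8.55 ± 0.929 TPM at days 2, 4 and 6, then 3.13 ± 0.258, 3.25 ± 1.54 and 1.58 ± 0.0434 at days 8, 10 and 12, and 3.24 ± 1.27, 3.05 ± 0.477 and 3.89 ± 2.27 at days 14, 16 and 18. The summed counts were 114, 411 and 386 at days 2, 4 and 6 and 33 to 124 afterwards, so that days 4 and 6 stood apart both in counts and in TPM. Between the profiles of day 10 the effective length by which RSEM divides its counts varied 3.31-fold, and the TPM there ranged from 1.47 to 4.23 although the counts were 11, 12 and 10. The line gave −1.70 (SE 0.73, edgeR adjusted p = 0.0722) and the spline an adjusted p of 0.0260. The line depended on single libraries in both directions, at −2.25 without day 2 (adjusted p = 0.0239) and −1.09 without day 4 (adjusted p = 0.270). On log2 TPM limma gave −0.84 (adjusted p = 0.359).

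Fgf2, basic FGF, which is stored in bone matrix, had an SD of up to 11.3 TPM between lanes of one library, beside an SD of 5.17 TPM over the means of the 9 days. The gene is at chr3:37211441-37304299 (plus strand, NCBIM37) with 7 transcripts of 323 to 1240 bases. Its level was 16.8 ± 3.85, 14.8 ± 5.05 and 10.9 ± 2.69 TPM at days 2, 4 and 6, then 8.89 ± 1.59, 21.3 ± 2.50 and 13.7 ± 1.35 at days 8, 10 and 12, and 23.7 ± 11.3, 8.71 ± 0.644 and 14.4 ± 5.05 at days 14, 16 and 18. All 8 neighbours in the order of levels overlapped. On day 14 the 3 lanes held 67.4, 55.6 and 66.6 estimated counts but 14.2 to 36.1 TPM.

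Over the 27 profiles the effective length of Fgf2 ran from 203 to 607 bases, and on day 14 it differed 2.46-fold between lanes, a larger factor than the largest one within a day for 96.1% of 11257 genes with at least 10 counts in every profile. In CPM, which uses no length, Fgf2 stayed between 2.90 and 5.28. Its counts were never whole numbers, and its exons share 242 bases with Nudt6 on the opposite strand, 55 with Cetn4, also opposite, and 32 with Bbs12 on the same strand. Whether the libraries kept the strand is not given in the sources used here, and without it reads from opposite strands cannot be told apart, so the level of Fgf2 is uncertain. The fitted change was −0.23 (SE 0.33, edgeR adjusted p = 0.577, 95% interval −0.96 to 0.50), and it turned to 0.11 without day 2 (adjusted p = 0.845). It was −0.36 without day 6 (adjusted p = 0.382) and −0.07 without day 16 (adjusted p = 0.877).

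**Figure D2:**
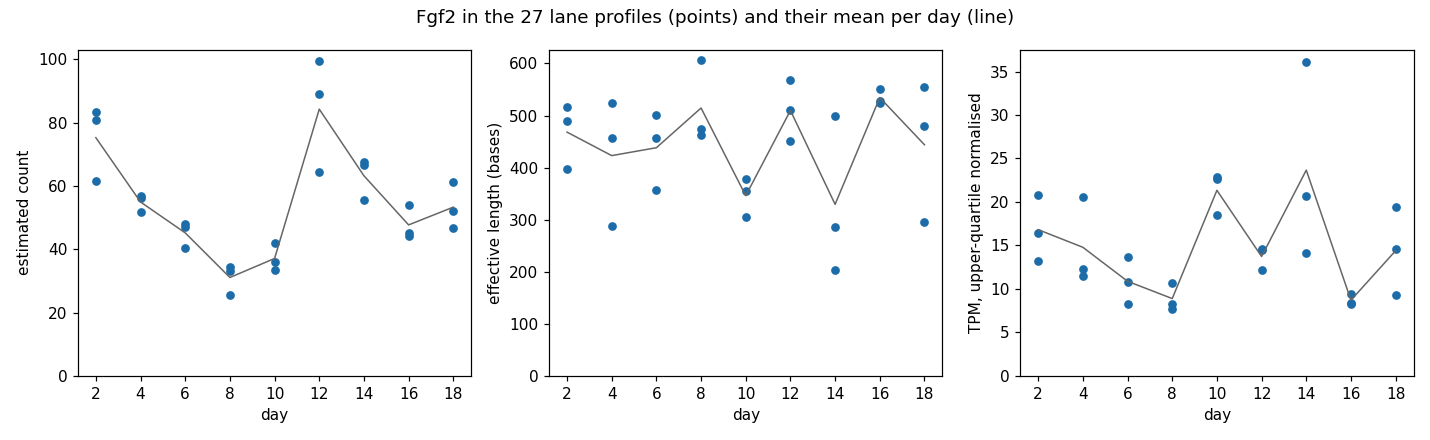
Fgf2 in the 27 lane profiles (points) and its mean per day (lines), as estimated count (left), RSEM's effective length in bases (middle) and TPM after upper-quartile normalisation (right), against day. On day 14 the counts were 55.6 to 67.4 while the TPM spread from 14.2 to 36.1.

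Of the receptors, Fgfr1 and Fgfr2 rose along the line and Fgfr3 changed by the spline only. Fgfr1, the receptor expressed widely in mesenchyme, spans chr8:26624126-26686186 (plus strand, NCBIM37). Its level was 39.0 ± 1.34, 55.3 ± 2.43 and 77.1 ± 2.35 TPM at days 2, 4 and 6, then 83.6 ± 3.48, 80.2 ± 6.40 and 87.0 ± 0.665 at days 8, 10 and 12, and 89.3 ± 0.707, 77.8 ± 2.46 and 96.9 ± 3.31 at days 14, 16 and 18. Days 2 and 4 lay below all later days, and from day 6 on the days between 77.1 and 87.0 TPM overlapped their neighbours. The fitted rise was 0.84 (SE 0.26, a 1.79-fold change, edgeR adjusted p = 0.0189), with an adjusted p of 1.99e-05 by the spline.

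For Fgfr1 the call of the line rested on the early libraries. Without day 2 the rise was 0.47 (adjusted p = 0.0807) and without day 4 it was 0.79 (adjusted p = 0.0553). It was 0.70 with library totals in place of upper-quartile factors (adjusted p = 0.0574), a scaling that moved the median change of all genes from 0.05 to −0.07, and 0.56 in days 14 to 18 against days 2 to 6 (adjusted p = 0.0718). Another identifier with the same symbol shares 761 exon bases with Fgfr1 but held 5 counts in all.

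Fgfr2, the receptor whose activating mutations cause several craniosynostoses, was the most abundant receptor on 8 of 9 days. Its annotation runs over chr7:137305965-140315033 (minus strand, NCBIM37) with 29 transcripts. Its level was 81.5 ± 4.75, 64.4 ± 3.76 and 76.3 ± 3.66 TPM at days 2, 4 and 6, then 91.8 ± 9.53, 181 ± 6.77 and 193 ± 5.24 at days 8, 10 and 12, and 195 ± 15.2, 159.5 ± 7.10 and 143 ± 6.17 at days 14, 16 and 18. Days 2 to 8, at 64.4 to 91.8 TPM, did not overlap days 10 to 18, at 143 to 195 TPM. Between days 8 and 10 the lanes moved from 86.2 to 103 TPM to 174 to 187 TPM. The fitted rise was 1.46 (SE 0.40, a 2.75-fold change, edgeR adjusted p = 0.0106), and the spline gave an adjusted p of 7.45e-05. Fgfr2 shares 314 exon bases with Ctbp2 on the same strand, and the gene values do not separate the IIIb and IIIc forms that differ in ligand binding.

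Fgfr3, which restrains growth plate cartilage and is also found in osteoblasts, was near the limit of 1 TPM. It is at chr5:34064373-34079716 (plus strand, NCBIM37). Its level was 1.21 ± 0.0952, 0.663 ± 0.204 and 0.429 ± 0.0683 TPM at days 2, 4 and 6, then 0.901 ± 0.168, 2.53 ± 0.617 and 2.99 ± 0.351 at days 8, 10 and 12, and 2.45 ± 0.716, 2.15 ± 0.756 and 2.60 ± 0.598 at days 14, 16 and 18. It reached 1 TPM on 6 of 9 days, and on 46 to 385 counts a day. Days 10 to 18 all lay above days 2 to 8, with no overlap between the lane values of day 2, at most 1.28 TPM, and those of the later group, at least 1.48 TPM. The fitted change was 1.55 (SE 0.67, edgeR adjusted p = 0.0747) and the spline gave an adjusted p of 0.0152. Without day 2 the line gave 2.43 (adjusted p = 0.0354).

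Set side by side, Fgfr2 and Fgfr1 made up nearly all receptor transcripts, and Fgfr3 0.278% to 1.07%. The ratio of Fgfr2 to Fgfr1 in TPM was 2.09 ± 0.0900, 1.17 ± 0.0738 and 0.989 ± 0.0236 at days 2, 4 and 6, then 1.10 ± 0.133, 2.27 ± 0.256 and 2.22 ± 0.0528 at days 8, 10 and 12, and 2.18 ± 0.153, 2.05 ± 0.158 and 1.47 ± 0.0452 at days 14, 16 and 18. The ratio was lowest on days 4 to 8, was near 1 on day 6, and lay within 2.05 to 2.27 on day 2 and on days 10 to 16. The summed level of the 3 receptors was 122 ± 5.64 and 120.3 ± 5.11 TPM at days 2 and 4, and 287 ± 15.7 and 242 ± 9.04 TPM at days 14 and 18. No test was run on the ratio.

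**Figure D3:**
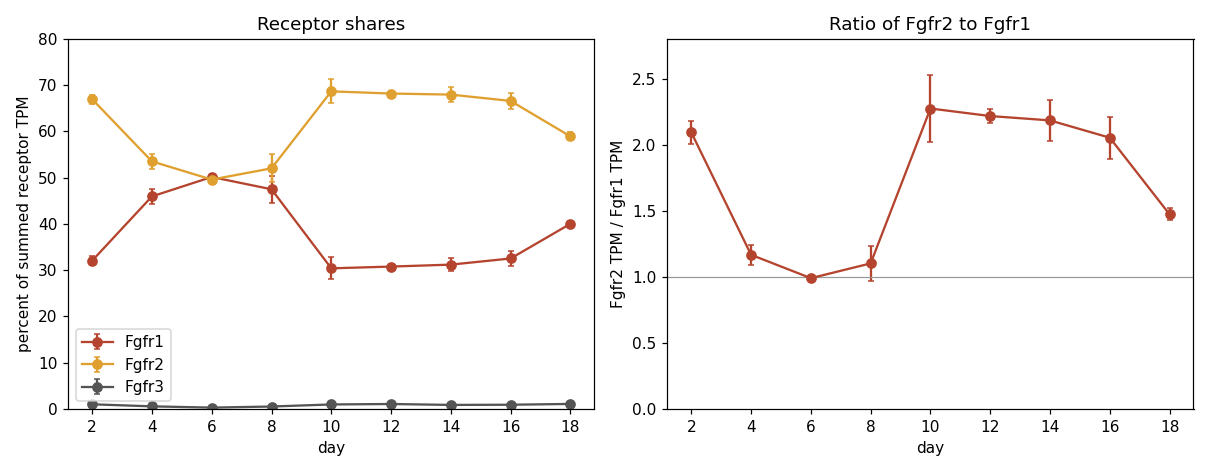
Left, share of Fgfr1, Fgfr2 and Fgfr3 in the summed TPM of the 3 receptors (percent) against day. Right, ratio of Fgfr2 to Fgfr1 TPM against day, with a line at 1. Points are means of 3 lane profiles and bars their SD, and the ratio dips to 0.989 on day 6 between 2.09 on day 2 and 2.27 on day 10.

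The feedback genes did not move together. Spry2, a Sprouty protein induced by receptor tyrosine kinases, is at chr14:106291166-106296036 (minus strand, NCBIM37) as a single transcript, and its promoter window is the one with the ETS match above. Its level was 7.01 ± 0.551, 7.89 ± 0.510 and 10.7 ± 0.758 TPM at days 2, 4 and 6, then 11.6 ± 0.888, 12.0 ± 0.559 and 12.3 ± 0.709 at days 8, 10 and 12, and 11.6 ± 0.318, 13.2 ± 0.584 and 15.5 ± 0.235 at days 14, 16 and 18. Days 2 and 4 lay below the rest, days 6 to 16 overlapped their neighbours in the order of levels, and day 18 was the highest with no overlap. The fitted rise was 0.84 (SE 0.18, a 1.79-fold change, edgeR adjusted p = 0.00308), and the spline gave an adjusted p of 0.00108.

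Dusp6, the ERK phosphatase, is at chr10:98725865-98730122 (plus strand, NCBIM37). Its level was 10.2 ± 0.662, 11.6 ± 0.846 and 18.3 ± 1.73 TPM at days 2, 4 and 6, then 12.9 ± 0.979, 7.17 ± 1.37 and 5.49 ± 0.507 at days 8, 10 and 12, and 5.92 ± 0.580, 5.54 ± 0.224 and 8.13 ± 0.590 at days 14, 16 and 18. Day 6 was the highest with no overlap with any other day, and days 10 to 18 lay below days 2 to 8. The fitted fall was by 1.31 on the log2 scale (SE 0.43, a fold of 0.404, edgeR adjusted p = 0.0253), with an adjusted p of 4.09e-05 by the spline. The line missed the threshold without day 14, at −1.22 (adjusted p = 0.0530), and without day 16, at −1.18 (adjusted p = 0.0722).

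Spry4, a relative of Spry2, lies at 38745922 to 38760922 on the minus strand of chromosome 18 (NCBIM37). Its level was 7.17 ± 0.547, 7.37 ± 0.0475 and 10.2 ± 0.703 TPM at days 2, 4 and 6, then 9.27 ± 0.579, 6.41 ± 0.128 and 8.72 ± 0.700 at days 8, 10 and 12, and 9.54 ± 0.305, 9.21 ± 0.457 and 10.6 ± 0.172 at days 14, 16 and 18. The values ran from 6.41 to 10.6 TPM, the narrowest range of the 10 members in relative terms at 1.65-fold. Its fitted change was 0.28 (SE 0.19, edgeR adjusted p = 0.239, 95% interval −0.14 to 0.71), and its adjusted p by the spline was 0.210. Without day 18 the change was 0.17 (adjusted p = 0.561). As shares of the 3 feedback transcripts, Dusp6 went from 46.6% ± 2.21 on day 6 to 19.8% ± 0.836 on day 16 and Spry2 from 27.4% ± 2.85 to 47.3% ± 1.83, while Spry4 had 26.1% ± 1.10 and 32.9% ± 1.78.

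**Figure D4:**
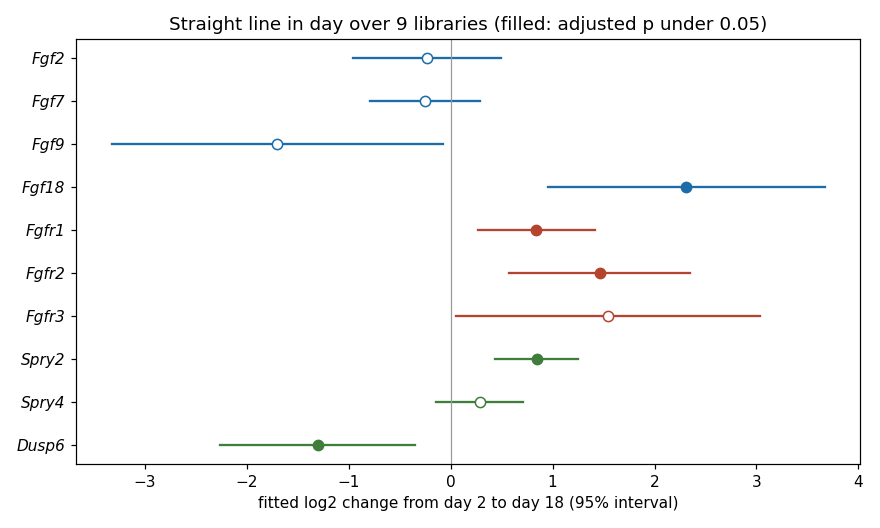
Fitted log2 change from day 2 to day 18 (horizontal axis) of each member, with its 95% interval, from a straight line in day over 9 libraries. Filled points have an adjusted p under 0.05, and the filled points are Fgf18, Fgfr1, Fgfr2 and Spry2 on the right of 0 and Dusp6 on the left. The intervals are not adjusted for multiple testing, and those of Fgf9 and Fgfr3 exclude 0 although their points are open.

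Most of the other secreted ligands had too few counts to be tested. Of 14 such genes 3 passed the filter, of which 2 rose and 1 fell. Beside the counts of this list and those that follow, 28.3% of all genes tested rose, 26.1% fell and 59.1% changed by the spline. Fgf10, a mesenchymal ligand of the Fgf7 subfamily, rose by 4.92 (edgeR adjusted p = 0.000198), with 0.543 TPM at the first time point and 10.8 TPM at the last. Fgf1, acidic FGF, rose by 3.38 (adjusted p = 0.000738), from 0.383 to 3.81 TPM, and Fgf5 fell by 3.09 (adjusted p = 0.0216) at a mean of 0.291 TPM. Fgf3, Fgf4, Fgf6, Fgf8 and Fgf20 had 0 counts in all profiles, which allows up to 0.0484 CPM on the deepest day and 0.134 CPM on the shallowest (3 counts of the total, counting error only). Fgf18 was thus one of 3 secreted ligands that rose among the 7 tested, with Fgf10 and Fgf1.

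All 4 intracellular FGF homologous factors, which do not act through the receptors, rose, among them Fgf11 by 3.50 (edgeR adjusted p = 2.12e-05, 0.409 to 5.81 TPM) and Fgf13 by 1.40 (adjusted p = 0.00950, 2.81 to 10.9 TPM at its lowest and highest). Fgf12 rose by 3.10 in counts (adjusted p = 0.00118) but its TPM jumped between 0.0963 and 38.8 from day to day, on 6 to 45 counts a day. Of 6 other receptors and binding proteins 5 were tested, of which 3 rose and 1 fell. Fgfrl1, an FGF receptor that lacks the kinase domain, rose by 2.42 (adjusted p = 9.29e-05), from 7.77 to 38.2 TPM. Its level on day 18 was below that of Fgfr1 and Fgfr2 and above that of Fgfr3. Klb, a coreceptor of endocrine FGFs, was listed at 0 on days 2 and 8 and rose to at most 2.12 TPM (adjusted p = 0.000729), and the binding protein gene Fgfbp3 fell by 1.64 (adjusted p = 0.00337).

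The 18 heparan sulfate genes encode core proteins or enzymes that build or trim the sugar chains that FGFs need for receptor binding. Among them 6 rose and 5 fell. The endosulfatase genes Sulf2 and Sulf1, whose products remove 6-O-sulfate groups, were called in opposite directions. Sulf2 rose by 1.92 (edgeR adjusted p = 0.000709), from 80.9 to 325 TPM on day 18, and Sulf1 fell by 1.83 (adjusted p = 0.00151), with 246 TPM on day 4 and 79.7 TPM at the end. The 6-O-sulfotransferase gene Hs6st1 rose by 2.06 (adjusted p = 0.000978), the core protein gene Sdc2 rose by 1.51 (adjusted p = 0.000283) and Hspg2, which encodes perlecan, fell by 2.06 (adjusted p = 9.21e-06).

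Of the 20 genes of the adaptors and the Ras-MAPK cascade, 4 rose and 7 fell. The docking protein gene Gab1 rose by 1.67 (edgeR adjusted p = 0.000398), Mapk3, which encodes ERK1, rose by 0.87 (adjusted p = 0.000119) and the adaptor gene Shc1 rose by 0.46 (adjusted p = 0.00452). The Ras genes Hras and Nras fell, by 1.81 (adjusted p = 0.000155) and 1.25 (adjusted p = 0.000130). Fgfr1 and Fgfr2 were called in the other direction, and Fgfr3 was not called by the line.

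Of 17 other feedback and target genes 16 were tested, of which 1 rose and 7 fell, and 13 changed by the spline. Fosl1, a Fos family gene induced by ERK, fell by 6.01 (edgeR adjusted p = 0.000306), with 55.6 TPM on day 2 and 0.792 TPM on day 16. The ETS factor genes Etv4 and Etv1 were called in opposite directions, Etv4 falling by 2.49 (adjusted p = 0.00561) and Etv1 rising by 2.08 (adjusted p = 0.00606). Flrt2 and Ccnd1, which encodes cyclin D1, fell by 1.34 (adjusted p = 0.000479) and by 0.85 (adjusted p = 0.0240). Egr1, an immediate early gene, had a change of 0.09 (adjusted p = 0.809) at a mean of 81.3 TPM.

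Over these 6 lists, 66 of 79 genes were tested, 20 rose, 21 fell and 51 changed by the spline. Of all genes tested 28.3% rose, 26.1% fell and 59.1% changed by the spline. The median change was −0.09 in the lists beside 0.05 for all genes tested. The lists were drawn up with results of these data known, and nothing particular to them is read from the counts.

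**Figure D5:**
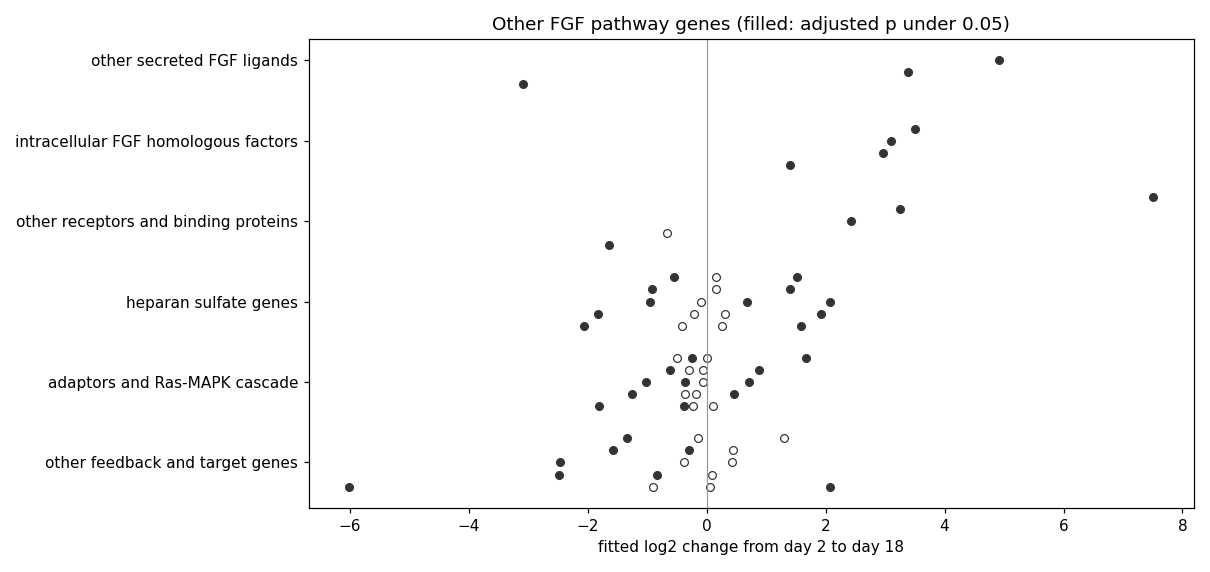
Fitted log2 change from day 2 to day 18 (horizontal axis) of the tested genes of 6 FGF pathway lists (rows, with points spread vertically only for legibility). Filled points have an adjusted p under 0.05, and all 4 intracellular factors lie to the right of 0 while Fosl1, at −6.01, lies farthest to the left.

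The course of each member over the 9 libraries was compared with those of 9807 other genes with a mean of at least 5 TPM. The measure was the root mean square (RMS) difference of log2 CPM after centring, not scaled to the size of a course. For Fgf18 the nearest were Esm1 (RMS 0.307), Dgat2 (0.345) and Gm12824 (0.410), and no gene came within 0.25. For Fgf9 they were Il4ra (0.294), Kcnk2 (0.345) and Spp1 (0.370), for Fgfr3 Id2 (0.307), Angpt2 (0.331) and Efnb1 (0.364), again with 0 genes within 0.25. The course of Fgfr2 was nearest to Ttc23 (0.119), Mcc (0.132) and Zfp704 (0.147), and 140 genes came within 0.25. For Dusp6 they were Pml (0.178), Lss (0.198) and Dut (0.214), and 13 genes came within that distance.

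The other members had more genes with a near course. Within 0.25 lay 764 genes for Fgfr1, led by Pcdhgc5, Psme1 and Cd276, 1543 for Spry2, led by Ak5, Gmppa and Fbxo6, and 1756 for Spry4, led by AI413582, Lpcat3 and Cpeb1. For Fgf7 the count was 1075, led by Adck4, St5 and Pear1, and for Fgf2 it was 195, led by Gm4724, Pcid2 and Zfp189. The RMS of the centred course itself was 0.201 for Spry4 and 0.242 for Fgf7, so a gene with no change would lie within 0.25 of either. It was 0.879 for Fgfr3, 0.889 for Fgf9 and 1.08 for Fgf18. The numbers of near genes thus depend on the size of a course and do not show how common its shape is. The libraries share depth and composition with every gene compared, so these distances are a description.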

How the data were processed

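RNA sequencing of mouse calvarial cells gave 27 profiles from 9 time points (3 lanes each). RNA was amplified before library construction, and the authors aligned reads to the NCBIm37 transcriptome with Bowtie and quantified genes with RSEM (Bowtie 0.12.9 and RSEM 1.2.8 in the submitters' processing notes). The deposited estimated counts are RSEM's expected counts and are not normalised. The TPM deposited by the authors divide them by an effective length and have a fixed sum. The FPKM deposited by the authors served only as an alternative level.

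Counts were summed over the lanes of a day and rounded, since the profiles carry 1 barcode. Over genes with whole counts of at least 30, lanes differed by no more than sampling noise (chi-square per degree of freedom 0.999 to 1.02). Depth per profile was 7331125 to 20888956 counts. edgeR 4.0.16 (R 4.3.3) fitted a line in day and a natural spline with 3 degrees of freedom (upper-quartile factors, filterByExpr minimum count 10, quasi-likelihood F test, two-sided, Benjamini-Hochberg adjusted p under 0.05). SE is the change divided by the square root of F. TPM of each profile was scaled to the mean 75th percentile. Tests were checked on simulated counts, but no error rate from these is given here. Symbols came from GENCODE for NCBIM37 (37205 of 37991 identifiers matched). Promoter windows are RefSeq's on GRCm38.p6, and coordinates of the 2 builds were not mixed.

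Members and gene lists were chosen with earlier results of these data known. Named pathway genes are, per list, the 3 highest in mean TPM and the 2 largest rises and falls among called genes whose mean reached 1 TPM. Alternatives were TMM factors, library totals, DESeq2 1.42.0, limma 3.58.1 on log2 TPM with a pseudocount of 0.5, other filters, 27 separate profiles, each lane or day left out, early against late days and a quadratic.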

Additional observations from a re-analysis of the deposited data

How the results depend on the processing

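Fgf18, Fgfr2 and Spry2 passed the threshold in 21 of 21 alternatives to the straight line. The count of members that fell, 1 as reported, was 2 with DESeq2, 2 in days 2 to 6 against days 14 to 18, and 2 with the 27 profiles as separate samples, with or without the replicate block (6 then rose, in place of 4). It ranged from 0 to 3 when a lane or a day was left out (0 without day 14 or day 16, 3 without day 2). The count that changed in any way, 7 as reported, was 4 with a quadratic in day. It was 6 with limma on log2 TPM, 8 with library totals and 10 with the 27 profiles as separate samples. When a lane or a day was left out it ranged from 5 to 9 (5 without day 4 or day 6, 9 without day 18). The fitted change of Fgf2 ranged from −0.36 to 0.11 when a lane or a day was left out. The replicate numbers mark lanes and do not pair the samples (mean correlation of deviations 0.006 for the same number), and the replicate block left Fgf9 at −1.74 (edgeR adjusted p = 0.00139), Fgfr3 at 1.54 (adjusted p = 0.00162) and Spry4 at 0.28 (adjusted p = 0.0340) past the threshold, as did the same profiles without it, which treat lanes of 1 library as replicates. Fgf9 and Fgfr3 also passed with DESeq2 (adjusted p = 0.0336 and 0.0370) and in early against late days. The cause of these differences was not tested. With the profiles counted as 1 library per time point, no spread between cultures was measured, and Fgf2, Fgf9, Fgf18 and Fgfr3 rested on 33 to 411 counts a day.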
